A study of Mus musculus with 31 samples.

Results

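The comparison set mammary glands of 8 dams that received both exposures, an FA (folic acid) supplemented diet together with fluoxetine, against glands of 8 dams that received neither, a breeder diet with saline. Libraries were chosen by the diet and drug in their sample labels alone, and these 16 libraries are part of the 31 libraries of the study. All dams were C57BL/6J mice, bred from 6 weeks of age, and each library holds poly-A RNA of the mammary gland of 1 dam on day 10 of lactation. The breeder diet contained 4 mg FA per kg and the supplemented diet 24 mg per kg, and either diet was given from 2 weeks before mating. Fluoxetine at 20 mg/kg or saline was injected daily from embryonic day 13 to lactation day 10, so that the control dams also received injections. The other 15 libraries come from 7 dams given breeder diet + fluoxetine and 8 dams given FA diet + saline, and they were used to estimate the spread and to set the single exposures beside the joint one. By its methods the study had 8 dams on fluoxetine with the breeder diet and 7 on fluoxetine with the FA diet, whereas the sample labels give 7 and 8, and the groups used here follow the labels. Diet and drug differ together between the 2 main groups, so their separate parts cannot be told apart from this contrast alone.

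Fluoxetine is a selective serotonin reuptake inhibitor, which blocks the transporter that carries serotonin back into cells. The lactating mammary epithelium makes serotonin of its own, and this local serotonin is known to raise parathyroid hormone-related protein, which draws calcium from bone for milk, and to act on the tight junctions that close the alveoli. FA enters the one-carbon cycle, which supplies units for nucleotide synthesis and the methyl groups used on DNA.

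Total gene counts per library were 15412542 to 23848706 in the control dams and 18919573 to 36000439 in the FA diet + fluoxetine dams. The mean was 2.06e+07 ± 3.20e+06 in controls and 2.52e+07 ± 5.67e+06 in the exposed group (SD, n = 8 each), and the difference had p = 0.0559 in a two-sided exact permutation test. Without FA diet + fluoxetine dam 3 the same exact test gave p = 0.0258, so the exposed libraries were on average the deeper ones. The part of depth in the results below was not tested.

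The library of FA diet + fluoxetine dam 3 stood apart from every other library. Its median correlation with the other 15 libraries of the comparison was 0.781, while the other libraries lay between 0.914 and 0.949. In this library 1097 genes were more than 2 times above, and 1280 genes below 0.5 times, every other library, against at most 39 and 244 genes for any other library. The 8 milk protein genes together held 58609 CPM in dam 3 (CPM, counts scaled to a common library size), against 537576 to 811099 in the other exposed dams and 549861 to 736871 in controls. The fibroblast and collagen genes together held 1507 CPM in dam 3, above the highest control sum of 398 CPM. The defining marker transcripts of the lactating gland, the caseins, *Wap* and *Lalba*, were therefore abundant in 15 of the 16 libraries and far lower in dam 3, where their sum was nevertheless well above that of the collagens. The 20 most abundant genes took 39.3% of the counts in dam 3 and 72.6% to 78.9% in the other exposed dams. The group means of this share were 76.5% ± 1.54 in controls and 72.0% ± 13.3 in exposed dams (exact permutation test, p = 0.536), and 76.6% ± 2.18 without dam 3 (SD, n = 7; exact permutation test, p = 0.929). Counts of the gene lists and values of the named genes in the main comparison are therefore given for the most part both with all 16 libraries and without dam 3. In whole-gland RNA, fewer cells of a type and less RNA per cell cannot be told apart.

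**Figure D1:**
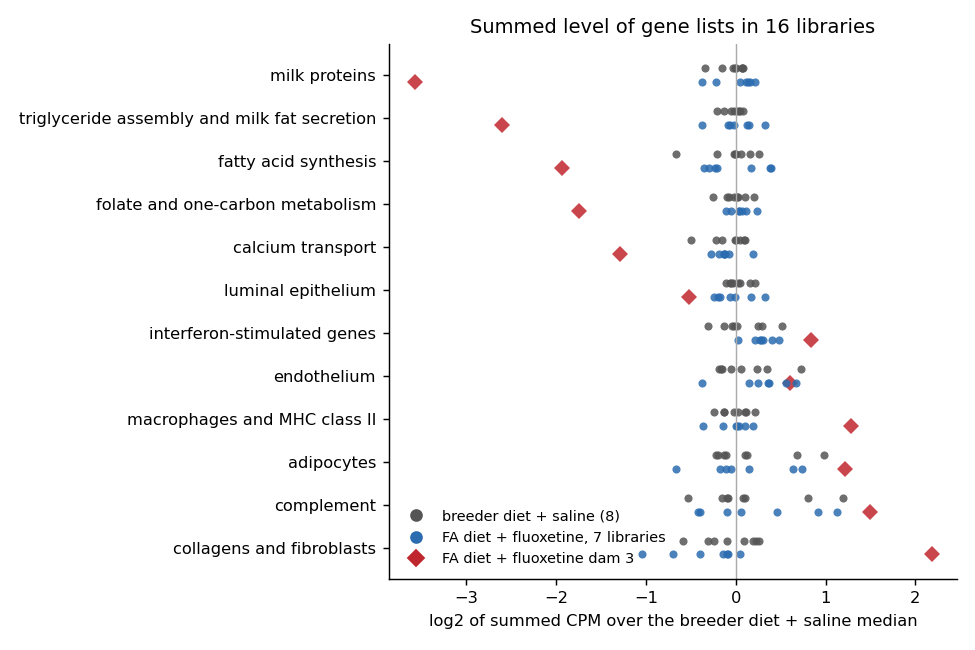
Summed level of gene lists in each of the 16 libraries, shown as log2 of the ratio to the median control library, with controls as grey points, 7 FA diet + fluoxetine dams as blue points and dam 3 as a red diamond. Dam 3 lies below all other libraries for milk proteins (58609 CPM) and above them for collagens and fibroblasts (1507 CPM), while the other libraries of both groups overlap.

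No gene passed a false discovery rate of 10% between the FA diet + fluoxetine and control dams. With edgeR's quasi-likelihood test 0 of 14362 genes passed (0%), and the smallest Benjamini-Hochberg adjusted p was 0.324. At an unadjusted p of 0.05 or below the same test gave 1215 genes (8.46% of those tested), of which 826 were higher (5.75%) and 389 lower (2.71%) in the exposed dams. A likelihood ratio test on the same counts called 1 gene, *Serhl*, and DESeq2 called 15 genes, 9 higher and 6 lower. The adjusted p of DESeq2 was 0.0244 for *Serhl* and 0.0802 to 0.0985 for the other 14, which were *Elovl6*, *Pea15a*, *Fam111a*, *Gadd45a*, *Tob2*, *Malat1*, *Jazf1*, 5 genes named only as gene models by the annotation and 2 others without a name. In 11 of the 15 genes called by DESeq2 dam 3 held the most extreme value of its group, and DESeq2 called 0 genes without dam 3 (smallest adjusted p = 0.162, with 1323 genes at an unadjusted p of 0.05 or below). DESeq2 adjusted its p over 17367 genes with all libraries and over 29211 without dam 3. The change from 15 to 0 calls can therefore not be assigned to dam 3 alone. The median standard error of a log2 fold change was 0.234, which is the scale on which the smaller differences below are to be read.

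Leaving out dam 3 removed the excess of higher genes. Then 0 of 14247 genes passed the edgeR test (smallest adjusted p = 0.444), and 1008 (7.08%) lay at an unadjusted p of 0.05 or below, 525 higher (3.68%) and 483 lower (3.39%). The share of all tested genes with a log2 fold change above 0 went from 55% to 48.9%, and the number of genes with a log2 fold change of 1 or above from 398 (2.77%) to 95 (0.667%). The number with a log2 fold change of -1 or below was 207 (1.44%) with all libraries and 247 (1.73%) without dam 3.

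**Figure D2:**
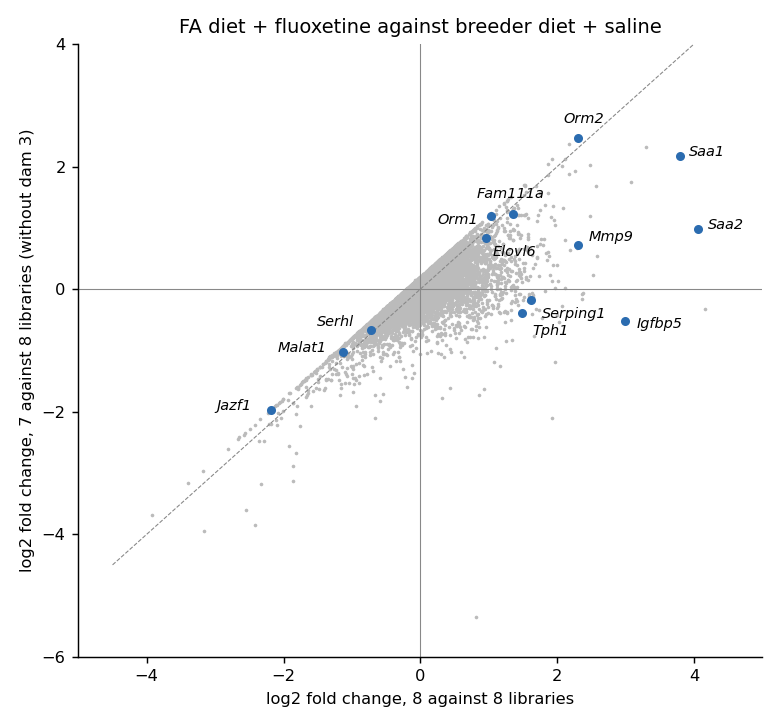
Log2 fold change of FA diet + fluoxetine against breeder diet + saline for each gene tested in both fits, with all 16 libraries on the horizontal axis and without dam 3 on the vertical axis. Points on the dashed diagonal have the same value in both fits. *Igfbp5* lies far from it (3.0 with dam 3 and -0.52 without), and *Elovl6* close to it (0.95 and 0.84).

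*Serhl*, which encodes a serine hydrolase-like protein (ENSMUSG00000058586, chromosome 15, 82973707 to 83000875 in GRCm39), had the smallest p of all genes. Its level was 10.3 CPM at the lowest, 12.1 at the median and 14.1 at the highest in controls, and 4.82, 7.25 and 9.73 CPM in the FA diet + fluoxetine dams. The groups did not overlap, since all 8 exposed dams lay below the lowest control. This is a log2 fold change of -0.72 (SE 0.15, edgeR adjusted p = 0.324), and -0.66 without dam 3 (SE 0.14, edgeR adjusted p = 0.444). The likelihood ratio test in edgeR gave an adjusted p of 0.0844 with all libraries.

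Only 4 of the 14362 genes tested (0.0279%) had no overlap of CPM between the groups, 2 higher (0.0139%) and 2 lower (0.0139%) in the exposed dams. Without dam 3 there were 7 (0.0491%), 4 higher (0.0281%) and 3 lower (0.0211%). Besides *Serhl*, *Cstpp1*, a gene for a centriolar satellite protein of tubulin polyglutamylation, was lower in all 8 exposed dams (0.386 to 0.655 CPM against 0.687 to 1.31 CPM in controls). *Haus8*, a subunit of the augmin complex of the mitotic spindle, was higher in all of them (1.13 to 3.60 CPM against 0.114 to 1.01 CPM). *Gm47445*, listed by the annotation as a gene still to be experimentally tested, reached 0.246 to 3.83 CPM against 0 to 0.222 CPM. These 3 genes are low, and their adjusted p in edgeR's test was 0.534 to 0.539.

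Among the 10 genes of smallest p were several of known function. *Pea15a* encodes a death effector domain phosphoprotein that holds ERK in the cytoplasm. It ranged over 6.05, 8.08 and 11.9 CPM (lowest, median, highest) in controls and 10.0, 12.4 and 31.4 CPM in exposed dams, and dam 3 was the highest of all. Its log2 fold change was 0.84 (SE 0.19, edgeR adjusted p = 0.534) and 0.57 without dam 3. *Tob2*, an antiproliferative protein that recruits the deadenylase complex to mRNA, ranged over 13.4, 20.2 and 28.4 CPM in controls and 8.83, 12.5 and 16.7 CPM in exposed dams. All 8 exposed dams lay below the control median for *Tob2*, with a log2 fold change of -0.67 (SE 0.16, edgeR adjusted p = 0.534) and -0.63 without dam 3.

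*Malat1*, an abundant long non-coding RNA retained in the nucleus (chromosome 19, 5845717 to 5853602 in GRCm39), ranged over 395, 602 and 1170 CPM in controls and 121, 339 and 426 CPM in exposed dams. In 5 of 8 exposed dams it lay below the lowest control, and its log2 fold change was -1.14 (SE 0.28, edgeR adjusted p = 0.534) and -1.03 without dam 3. *Fam111a*, a protease that acts at replication forks, ranged over 0.286, 0.750 and 1.13 CPM in controls and 0.893, 1.88 and 2.93 CPM in exposed dams, 7 of 8 above the highest control. The log2 fold change of *Fam111a* was 1.36 (SE 0.34) and 1.23 without dam 3. *Jpt1* had 0.67 (0.43 without dam 3), the stress gene *Gadd45a* 1.96 (1.13 without dam 3), and a gene without a name in the annotation used, ENSMUSG00000090329, 2.57 (1.69 without dam 3). In *Jpt1*, *Gadd45a* and ENSMUSG00000090329 dam 3 held the highest level of all 16 libraries, with 34.8, 8.06 and 7.13 CPM.

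Without dam 3 the genes of smallest p included 6 that were not among the 10 with all libraries. *Uqcc6*, an assembly factor of respiratory complex III, ranged over 1.95, 2.55 and 2.77 CPM in controls and 3.47, 3.82 and 5.26 CPM in the other 7 exposed dams, all above the highest control, while dam 3 had 0.839 CPM. Its log2 fold change without dam 3 was 0.71 (SE 0.16, edgeR adjusted p = 0.444) and with all libraries 0.57. *Gphn*, the scaffold gephyrin that also makes the molybdenum cofactor, had a log2 fold change of -0.55 without dam 3, and *Ahcyl2*, a relative of S-adenosylhomocysteine hydrolase, -0.85. *Klhdc7a* stood at -0.66, the immunoglobulin segment *Igkv4-80* at -3.84 and *Arpp19*, an inhibitor of protein phosphatase 2A in mitotic entry, at 0.52, all without dam 3. For *Klhdc7a* dam 3 was the highest of the exposed dams (13.4 CPM), and the log2 fold change with it was -0.36.

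**Figure D3:**
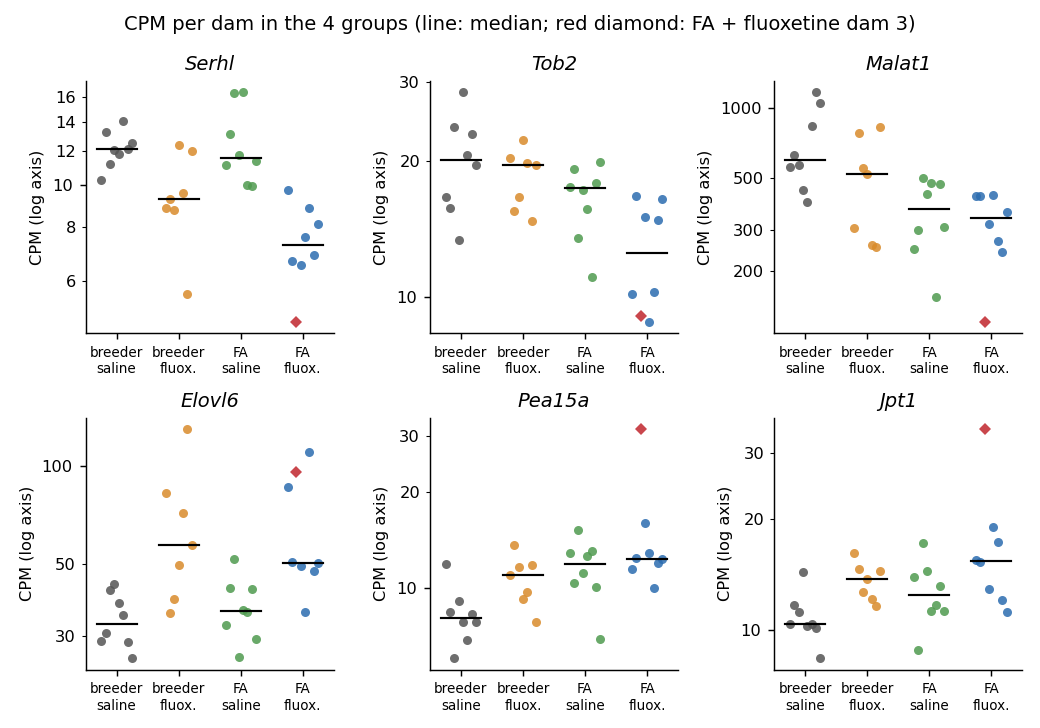
Level in CPM on a log axis of 6 of the 10 genes of smallest p in each dam of the 4 groups, with a line at the group median and dam 3 of the FA diet + fluoxetine group as a red diamond. *Serhl* does not overlap between groups (4.82 to 9.73 CPM against 10.3 to 14.1 CPM), while *Pea15a* and *Jpt1* have dam 3 as their highest point.

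Milk protein genes did not differ between the groups beyond the spread of the dams. Of the 8 genes (caseins, *Wap*, *Lalba* and *Glycam1*) 1 was higher with all libraries and 4 without dam 3, none had an unadjusted p of 0.05 or below, and the median log2 fold change was -0.15 with and 0.0021 without dam 3. *Csn2*, the gene of beta-casein, ranged over 121112, 156709 and 180301 CPM in controls and 129648, 151717 and 196055 CPM in 7 exposed dams, with 13531 CPM in dam 3. For *Csn2* the log2 fold change was -0.12 (SE 0.29) with and 0.043 (SE 0.16) without dam 3. *Wap*, whey acidic protein, had a log2 fold change of -0.0004 with and 0.16 without dam 3. *Lalba*, alpha-lactalbumin, the regulatory subunit of lactose synthase, ranged over 2894, 3688 and 4453 CPM in controls and 2362 to 6067 CPM in 7 exposed dams, with 708 CPM in dam 3. The log2 fold change of *Lalba* was -0.18 (SE 0.25) with and -0.043 (SE 0.19) without dam 3. Among 11 genes of lactose synthesis and glucose uptake 3 were higher, and 5 without dam 3. *Galt*, which turns galactose-1-phosphate into UDP-galactose, was the one with an unadjusted p of 0.05 or below among the higher genes. It ranged over 6.86, 8.46 and 12.8 CPM in controls and 9.28, 11.7 and 21.4 CPM in exposed dams, all 8 above the control median, with a log2 fold change of 0.49 (SE 0.18, edgeR adjusted p = 0.539) and 0.47 without dam 3. Hexokinase 2, *Hk2*, was the lower one (-0.40), and its value without dam 3 was -0.29.

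Among the milk lipid genes the elongase *Elovl6* had the smallest p in both fits. *Elovl6*, which lengthens palmitate to stearate (ENSMUSG00000041220, chromosome 3, 129326004 to 129432144 in GRCm39), ranged over 25.7, 32.8 and 43.3 CPM in controls and 35.7, 50.6 and 111 CPM in exposed dams. In 7 of the 8 exposed dams it lay above the highest control. This is a log2 fold change of 0.95 (SE 0.23, edgeR adjusted p = 0.534), and 0.84 (SE 0.23, edgeR adjusted p = 0.543) without dam 3. Of the 13 tested genes of elongation and desaturation 6 were higher, *Elovl6* alone with an unadjusted p of 0.05 or below, and the median log2 fold change was -0.056. Without dam 3, 8 of 13 were higher and *Tecr*, the reductase of the elongation cycle, joined *Elovl6* at an unadjusted p of 0.05 or below (0.29). Of all genes tested 5.75% were higher at that p with all libraries, and 3.68% without dam 3. *Scd1*, the desaturase that acts on the same stearate, had a log2 fold change of 0.29 (SE 0.28), and 0.34 without dam 3. *Fads1*, a desaturase of polyunsaturated fatty acids, had -0.17 (SE 0.24) with and -0.025 (SE 0.15) without dam 3.

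Fatty acid synthesis had 4 of 11 genes higher with a median of -0.098, and 7 of 11 with a median of 0.032 without dam 3. *Fasn*, the fatty acid synthase, had a log2 fold change of -0.098 (SE 0.30) with and 0.032 (SE 0.27) without dam 3. *Olah*, the thioesterase that ends chains at medium length, had -0.40 (SE 0.30) with and -0.24 (SE 0.18) without. Triglyceride assembly and milk fat secretion had 6 of 15 genes higher (median -0.085), and 10 of 15 without dam 3 (median 0.053). *Dgat2*, which adds the last fatty acid to a triglyceride, was the member at an unadjusted p of 0.05 or below in the fit of all libraries (log2 fold change 0.83, SE 0.38), and dam 3 was its highest library (42.2 CPM). Without dam 3 *Dgat2* had 0.42 (SE 0.36). *Lpl*, which releases fatty acids from circulating lipoproteins, had a log2 fold change of 0.18 (SE 0.21) with and 0.31 (SE 0.14) without dam 3, where it was the member at that p. Cholesterol synthesis had 9 of 21 genes higher (median -0.040), and 12 of 21 without dam 3 (median 0.022). *Fdps*, farnesyl diphosphate synthase, was the member with the smallest p, at 10.3, 20.9 and 28.0 CPM in controls and 12.3, 26.2 and 53.1 CPM in exposed dams. The groups overlapped for *Fdps*, dam 3 was the lowest exposed dam, and the log2 fold change was 0.52 (SE 0.23) with and 0.62 (SE 0.21) without dam 3.

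Acute phase genes, which encode secreted proteins of the innate response, had higher levels in most FA diet + fluoxetine dams, with a wide spread. Of 15 genes tested 13 had a log2 fold change above 0 and 7 an unadjusted p of 0.05 or below, all higher, with a median log2 fold change of 1.02. Over all genes tested 55% were above 0, 5.75% were higher at that p, and the median was 0.035. Without dam 3 the figures were 11 of 15 higher, 4 with an unadjusted p of 0.05 or below and a median of 0.82. The same figures over all genes were 48.9%, 3.68% higher at that p and a median of -0.0069. None of the 15 genes passed the false discovery rate in either fit.

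The orosomucoids, which bind lipophilic compounds and basic drugs in plasma, were higher in most exposed dams but low in dam 3. *Orm1* ranged over 104, 161 and 240 CPM in controls and 51.9, 363 and 526 CPM in exposed dams. In 6 of 8 exposed dams *Orm1* lay above the highest control, while dam 3 was below the lowest. The log2 fold change of *Orm1* was 1.04 (SE 0.38, edgeR adjusted p = 0.539) with and 1.19 (SE 0.36, edgeR adjusted p = 0.588) without dam 3. *Orm2* ranged over 2.75, 5.81 and 10.4 CPM in controls and 2.99, 27.7 and 85.1 CPM in exposed dams, 6 of 8 above the highest control and dam 3 the lowest of the group. For *Orm2* the log2 fold change was 2.30 (SE 0.76, edgeR adjusted p = 0.539) with and 2.47 (SE 0.75, edgeR adjusted p = 0.593) without dam 3.

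The serum amyloid A genes depended more on dam 3. *Saa1* ranged over 0.706, 2.90 and 12.8 CPM in controls and 0.719, 18.5 and 320 CPM in exposed dams, where dam 3 had the 320 CPM and the next highest dam 53.7 CPM. The log2 fold change of *Saa1* was 3.79 (SE 1.33) with and 2.17 (SE 1.19) without dam 3. *Saa2* had 4.06 with and 0.98 without dam 3, and *Saa3* 2.26 with and 1.93 without. *Saa1* and *Saa2*, and *Orm1* and *Orm2*, are close copies of each other, so reads may have been divided unevenly within each pair. *Lcn2*, lipocalin 2, which binds iron siderophores of bacteria, ranged over 250, 309 and 624 CPM in controls and 235, 599 and 851 CPM in exposed dams (log2 fold change 0.72, SE 0.31, and 0.82, SE 0.32, without dam 3). *Ltf*, lactoferrin, an iron-binding milk protein, had a log2 fold change of -0.060 (SE 0.26) with and 0.012 (SE 0.26) without dam 3.

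Complement genes had 12 of 13 members higher with a median log2 fold change of 0.84 and 5 members higher with an unadjusted p of 0.05 or below (5.75% of all genes), and 4 of 13 higher with a median of -0.15 without dam 3. *Serping1*, the C1 inhibitor, ranged over 2.08, 3.24 and 4.92 CPM in controls and 2.14, 3.08 and 4.39 CPM in 7 exposed dams, with 61.1 CPM in dam 3, so its log2 fold change of 1.62 turned to -0.18 without that library. *C4b*, complement component 4, was the member whose value stayed near 1 in either fit. It ranged over 10.7, 31.9 and 132 CPM in controls and 41.5, 86.5 and 144 CPM in exposed dams, all 8 above the control median, with a log2 fold change of 1.02 (SE 0.51) and 0.87 (SE 0.53) without dam 3.

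Most markers of neutrophils and of T and NK cells were low, macrophage genes moved with dam 3, and B and plasma cell genes were mostly below 0 in both fits. Of 12 neutrophil markers 3 were abundant enough to be tested, and the defining granule genes *Mpo*, *Elane*, *Ly6g* and *Camp* were not among them. *Mmp9* had a log2 fold change of 2.30 with and 0.72 without dam 3, and *Csf3r* 0.68 and 0.75. Macrophage and MHC class II genes had 11 of 12 higher (median 0.25) with all libraries, and 2 of 12 (median -0.081) without dam 3, in which *Mrc1*, the mannose receptor, reached 26.9 CPM against at most 2.98 CPM in the other exposed dams. Only 2 of the T and NK cell genes, *Lck* and *Cd4*, were tested. Of 9 B and plasma cell genes 1 was higher (median -0.30), and 1 without dam 3 (median -0.32). *Igha*, the constant region of immunoglobulin A, ranged over 35.7, 764 and 1286 CPM in controls and 14.0, 414 and 1121 CPM in exposed dams (log2 fold change -0.54, SE 0.60, and -0.50, SE 0.65, without dam 3). Interferon-stimulated genes had 11 of 12 higher (median 0.45), and 9 of 12 without dam 3 (median 0.17), with no gene at an unadjusted p of 0.05 or below in either fit. Over all genes tested 55% were higher (median 0.035), and 48.9% without dam 3 (median -0.0069). Whether immune cells take part in the acute phase values was not tested.

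The target of fluoxetine was at the limit of detection in these glands. *Slc6a4*, the serotonin transporter, had 0 counts in all 8 control libraries and 21 counts in 2 of the exposed libraries, of which 18 were in dam 3, and it was too low to be tested. Of 23 genes of serotonin synthesis, transport and receptors 14 were tested, 8 were higher, and the median log2 fold change was 0.028 (4 higher and -0.10 without dam 3). *Tph1*, the rate-limiting enzyme of serotonin synthesis outside the brain, ranged over 0.242, 0.638 and 1.65 CPM in controls and 0.263, 0.589 and 1.05 CPM in 7 exposed dams, with 12.5 CPM in dam 3. Its log2 fold change of 1.48 (SE 0.62) thus turned to -0.39 (SE 0.44) without dam 3. *Maoa*, which degrades serotonin, had -0.10 and -0.21 without dam 3, and *Gch1*, which starts the synthesis of the hydroxylase cofactor, 0.54 in both fits. The serotonin receptor genes of the list except *Htr1d* were too low to be tested.

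*Pthlh*, the gene of parathyroid hormone-related protein, ranged over 6.99, 23.7 and 30.05 CPM in controls and 1.08, 19.6 and 31.8 CPM in exposed dams, where dam 3 was the lowest. The log2 fold change was -0.12 (SE 0.36) with and 0.048 (SE 0.25) without dam 3, and the groups overlapped over nearly their whole range. Of 20 calcium transport genes 9 were higher (median -0.019), and 8 without dam 3 (median -0.064). At an unadjusted p of 0.05 or below lay 1 gene in each direction, and 0 higher and 2 lower genes without dam 3. Of all genes tested 5.75% were higher and 2.71% lower at that p, and 3.68% and 3.39% without dam 3. *Atp2a2*, the SERCA2 pump that loads calcium into the endoplasmic reticulum, ranged over 31.4, 41.2 and 51.8 CPM in controls and 23.1, 27.9 and 46.5 CPM in exposed dams. In 6 of 8 exposed dams it lay below the lowest control, with a log2 fold change of -0.43 in both fits (SE 0.15, edgeR adjusted p = 0.539 with all libraries). *Atp2b2*, the plasma membrane pump that moves calcium into milk, had -0.31 (SE 0.29) with and -0.14 (SE 0.18) without dam 3. *Itpr2*, an inositol trisphosphate receptor, had 0.69 with and 0.23 without dam 3, in which it reached 48.3 CPM. *Itpr2* was the higher gene at an unadjusted p of 0.05 or below with all libraries. *Atp2b1*, another plasma membrane pump, was the second lower gene without dam 3 (-0.33, against -0.048 with it). Tight junction genes had 2 of 10 members higher in both fits.

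Genes of folate uptake and one-carbon metabolism had no common direction. Of 29 tested genes 13 were higher, and the median log2 fold change was -0.043 (14 higher and -0.021 without dam 3). At an unadjusted p of 0.05 or below lay 0 higher and 1 lower gene, and 0 higher and 2 lower genes without dam 3. Of all genes tested 2.71% were lower at that p with all libraries, and 3.39% without dam 3. *Folr1*, the folate receptor alpha, ranged over 230, 324 and 408 CPM in controls and 284, 372 and 441 CPM in 7 exposed dams, with 26.5 CPM in dam 3. Its log2 fold change was 0.0023 (SE 0.27) with and 0.17 (SE 0.15) without dam 3. *Slc19a1*, the reduced folate carrier, was too low to be tested. *Shmt1*, which loads serine-derived one-carbon units onto folate, had 0.082 (SE 0.15), and 0.14 without dam 3. *Mat2a*, which makes the methyl donor S-adenosylmethionine, was the lower gene with all libraries, with -0.28 and -0.33 without dam 3. *Cbs*, which takes homocysteine out of the cycle, was the second one without dam 3 (-0.42, against -0.60 with it).

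Of 13 tested genes of DNA methylation 6 were higher (median -0.083), with 0 higher and 2 lower genes at an unadjusted p of 0.05 or below. Without dam 3, 5 were higher (median -0.12), with 0 higher and 3 lower genes at that p. Of all genes tested 2.71% were lower at that p with all libraries, and 3.39% without dam 3. *Tet3*, a dioxygenase that oxidises 5-methylcytosine, ranged over 16.1, 20.3 and 25.7 CPM in controls and 9.68, 16.2 and 19.1 CPM in exposed dams. All 8 exposed dams lay below the control median, and the log2 fold change was -0.39 (SE 0.15, edgeR adjusted p = 0.539) with and -0.45 (SE 0.15, edgeR adjusted p = 0.629) without dam 3. *Tet1*, of the same family, was another lower gene at that p (-0.83, and -0.84 without dam 3). The maintenance methyltransferase *Dnmt1* had 0.13 (SE 0.17), and 0.070 without dam 3, and the de novo enzyme *Dnmt3a* 0.13, which was -0.12 without dam 3.

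Luminal epithelium genes had 6 of 11 members higher in both fits, and prolactin and STAT5 signalling had 4 of 12 higher (median -0.14), and 3 of 11 without dam 3 (median -0.20). *Elf5*, the transcription factor of the alveolar lineage, had a log2 fold change of -0.23 (SE 0.18) with and -0.11 (SE 0.12) without dam 3. *Stat5a*, which carries the prolactin signal to milk genes, had -0.25 (SE 0.21) with and -0.14 (SE 0.18) without. *Akt1*, a kinase of the lactating epithelium, ranged over 141, 164 and 193 CPM in controls and 64.1, 140 and 171 CPM in exposed dams (-0.33, SE 0.16, and -0.25, SE 0.13, without dam 3). STAT3 and involution genes had 7 of 14 higher with 4 at an unadjusted p of 0.05 or below among them (5.75% of all genes). Without dam 3, 3 of 14 were higher with 0 such genes, and 2 lower genes lay at that p (3.39% of all genes). *Igfbp5*, a binding protein of insulin-like growth factors that is induced at involution, ranged over 3.92, 6.80 and 8.62 CPM in controls and 2.0, 4.51 and 6.25 CPM in 7 exposed dams, with 378 CPM in dam 3. The log2 fold change of *Igfbp5* was 3.0 (SE 0.91) with and -0.52 (SE 0.39) without dam 3.

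Stromal and fat genes followed the same library. Collagen and fibroblast genes had 14 of 14 higher (median 0.52) with all libraries and 0 of 14 higher without dam 3 (median -0.31), where 4 lower members lay at an unadjusted p of 0.05 or below (3.39% of all genes). *Col1a1*, the main fibrillar collagen chain, had 0.49 with and -0.67 without dam 3. Adipocyte genes had 8 of 13 higher (median 0.14), and 3 of 13 without dam 3 (median -0.25), while *Fabp4*, their fatty acid carrier, had 0.67 (SE 0.23) with and 0.29 (SE 0.16) without. *Emcn*, a sialomucin of venous and capillary endothelium, ranged over 1.32, 1.85 and 2.06 CPM in controls and 1.84, 2.53 and 4.63 CPM in exposed dams, 6 of 8 above the highest control (0.60, SE 0.22, and 0.43, SE 0.21, without dam 3). Endothelial genes had 9 of 9 higher, and 7 of 9 without dam 3, against 55% and 48.9% of all genes. Skeletal muscle genes summed to 63.6 to 2298 CPM in controls (median 400) and 4.27 to 4101 CPM in exposed dams (median 49.4 without dam 3). Libraries of both groups thus held varying amounts of muscle RNA, and exposed dams 1, 2, 3, 5 and 6 lay below the lowest control. Of 12 such genes 1 was higher, and 6 without dam 3. Red blood cell genes had 5 of 5 higher in both fits (median 0.73, and 0.79 without dam 3), against 55% and 48.9% of all genes. Their summed level was 50.9 to 104 CPM in controls (median 59.7). Exposed dams 4, 5 and 6 lay above the highest control sum, and exposed dams 1, 2, 3 and 10 below the control median. The higher values thus rested on some of the exposed dams, and the groups overlapped. Myoepithelial genes had 7 of 13 higher, and 5 of 13 without dam 3.

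In the next lists the direction of the values named was the same with and without dam 3. Cell cycle genes had 13 of 16 higher (median 0.37), and 13 of 15 without dam 3 (median 0.47), against 55% and 48.9% of all genes. Their summed level was 60.4 to 77.5 CPM in controls (median 69.6). It was 35.3 CPM in dam 3 and 44.0 to 114 CPM in the other exposed dams (median 70.6), so the groups overlapped. With all libraries 1 gene, *Mcm3*, of the replicative helicase, lay at an unadjusted p of 0.05 or below (0.99, SE 0.43), where 5.75% of all genes were higher. *Mcm3* had 0.77 (SE 0.43) without dam 3, where 0 cell cycle genes lay at that p. *Nr1d1*, the clock repressor REV-ERB alpha, ranged over 23.6, 32.6 and 40.6 CPM in controls and 18.1, 23.6 and 25.8 CPM in exposed dams. All 8 exposed dams lay below the control median of *Nr1d1*, with a log2 fold change of -0.50 (SE 0.15, edgeR adjusted p = 0.539) with and -0.53 (SE 0.15, edgeR adjusted p = 0.543) without dam 3. Of the 13 clock genes 7 were higher, and *Nr1d1* was the 1 lower gene with an unadjusted p of 0.05 or below. *Lfng*, the glycosyltransferase that tunes Notch receptors, ranged over 4.84, 9.29 and 13.6 CPM in controls and 2.58, 4.64 and 7.81 CPM in exposed dams. *Lfng* was below the lowest control in 5 of 8 exposed dams and below the control median in all 8, with -0.74 (SE 0.23, edgeR adjusted p = 0.539) and -0.85 (SE 0.23, edgeR adjusted p = 0.543) without dam 3. *Jazf1*, a zinc finger protein of the NuA4 acetyltransferase complex, was low, at 0.252, 0.706 and 1.60 CPM in controls and 0, 0.193 and 0.393 CPM in exposed dams (-2.18, SE 0.64, and -1.98, SE 0.58, without dam 3).

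The remaining lists had no member at an unadjusted p of 0.05 or below in the fit without dam 3, or 1 at most. Of 16 genes of the unfolded protein response 10 were higher (11 without dam 3), of 13 genes of amino acid transport and synthesis 2 were higher (4 without dam 3), of 11 immediate early genes 8 were higher (5 without dam 3), and of 14 Notch genes 11 were higher (6 without dam 3). Of 6 sodium and chloride channel genes 1 was higher (0 without dam 3). Of all genes tested 55% were higher, and 48.9% without dam 3. Of 6 genes of parathyroid hormone-related protein signalling and calcium sensing 1 was higher (2 without dam 3), the receptor *Pth1r* (1.32, and 0.46 without dam 3).

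The single exposures were set beside the joint one for the same genes. Breeder diet + fluoxetine against control gave 0 of 14362 genes at the false discovery rate by edgeR and 630 genes (4.39%) at an unadjusted p of 0.05 or below, and FA diet + saline against control gave 0 and 875 genes (6.09%). All 3 comparisons share the 8 control libraries, so their values are not independent, and the values with both exposures in these paragraphs include dam 3 unless stated. *Elovl6* had a log2 fold change of 0.95 with both exposures, 0.97 with fluoxetine alone (SE 0.24) and 0.12 with FA alone (SE 0.23). *Serhl* had -0.72 with both, -0.36 (SE 0.15) with fluoxetine and 0.041 (SE 0.15) with FA. *Malat1* had -1.14 with both, -0.50 (SE 0.29) with fluoxetine and -0.97 (SE 0.28) with FA, and *Lfng* had -0.74, 0.028 and -0.58 in the same order. *Cstpp1* had -0.71 with both exposures and -0.0091 and 0.045 with either alone.

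Acute phase genes had positive values with fluoxetine alone as well, and the largest of these rested on 1 dam. *Orm2* had log2 fold changes of 2.30 with both, 3.52 (SE 0.81) with fluoxetine and 1.41 (SE 0.74) with FA, and *Saa1* 3.79, 4.21 and 2.13. *Slpi*, a secreted protease inhibitor, had 1.08 (SE 0.78) with both, 3.88 (SE 0.85) with fluoxetine and 0.40 (SE 0.79) with FA. *C4b* had 1.02, 2.23 and 0.24, and *Lcn2* 0.72, 1.11 and 0.63. Breeder diet + fluoxetine dam 13 was the highest of its 7 libraries in 4 of the 6 plotted genes. Its level was 324 CPM for *Slpi* and 376 CPM for *Orm2*, where the next highest dam of the group had 23.9 and 45.7 CPM and the group median was 5.04 and 29.3 CPM. For *Saa1* dam 13 had 382 CPM and the next highest dam 95.2 CPM, while the group median was 2.72 CPM, against 2.90 CPM in controls. Without dam 13, an omission chosen after seeing the data, the values with fluoxetine alone were 1.16 (SE 0.48) for *Slpi*, 1.76 (SE 0.61) for *Orm2*, 2.59 (SE 1.25) for *Saa1* and 0.72 (SE 0.29) for *Lcn2*. *C4b* had its highest level in dam 5 of that group (733 CPM, against 153 CPM in the next dam).

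The difference of the joint value from the sum of the single ones was tested as an interaction in edgeR. No gene passed the false discovery rate, and 552 (3.84%) lay at an unadjusted p of 0.05 or below, or 496 (3.48%) without dam 3. *Slpi* had a log2 interaction of -3.19 (unadjusted p = 0.0081, edgeR adjusted p = 0.977) and *Orm2* of -2.63 (unadjusted p = 0.0187, edgeR adjusted p = 0.977). Without breeder diet + fluoxetine dam 13 these interactions were -0.46 (SE 0.65) and -0.86 (SE 0.82), with an unadjusted p of 0.483 and 0.300 in edgeR. *Mllt6*, a reader of chromatin bound to the DOT1L complex, had the smallest unadjusted p among the named genes, with an interaction of 1.01 (edgeR, unadjusted p = 0.000637, adjusted p = 0.977) and 0.74 without dam 3. Its log2 fold change was -0.16 with both exposures, -0.42 without dam 3, -0.50 with fluoxetine and -0.67 with FA.

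Finally, 2 groups of housekeeping genes had small differences in 1 direction, and these groups were chosen after their values were seen. Of 81 genes of cytoplasmic ribosomal proteins 76 were higher, 9 of them with an unadjusted p of 0.05 or below, and the median log2 fold change was 0.20. Over all genes tested 55% were higher, 5.75% were higher at that p, and the median was 0.035. Without dam 3, 78 of 81 were higher, 24 with an unadjusted p of 0.05 or below, and the median was 0.25, against 48.9%, 3.68% and -0.0069 over all genes. Their summed level was 11596 to 18855 CPM in controls (median 15851) and 14532 to 22591 CPM in 7 exposed dams (median 18974), with 11519 CPM in dam 3, so the groups overlapped. Of 94 nuclear genes of the respiratory chain 86 were higher, 6 of them with an unadjusted p of 0.05 or below, and the median was 0.18. Without dam 3, 92 were higher, 49 with an unadjusted p of 0.05 or below, and the median was 0.27, so the number at that p depended on dam 3. The medians of the ribosomal group were 0.22 with fluoxetine alone and 0.21 with FA alone, and those of the respiratory group 0.23 and 0.25. All 3 comparisons share the controls, of which dams 11 and 12 stood low. They had 11933 and 11596 CPM of ribosomal genes (next lowest control 15376) and 4194 and 3852 CPM of respiratory genes (next lowest control 4740). The part of these 2 libraries in the medians was not tested. Protein-coding genes were then put in 5 groups of equal size by exon length, and the median log2 fold change went from 0.11 in the shortest group to -0.018 in the longest, and from 0.069 to -0.060 without dam 3. Against the same controls it went from 0.067 to -0.048 with fluoxetine alone and from 0.097 to -0.057 with FA alone. Gene length thus moved with the difference from the controls in each of the 3 groups, and its part in the values of the ribosomal and respiratory genes was not tested. The controls also differed among themselves. The shortest group's median deviation from the control mean, less the longest group's, went from -0.16 in control dam 12 to 0.28 in control dam 4.

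**Figure D4:**
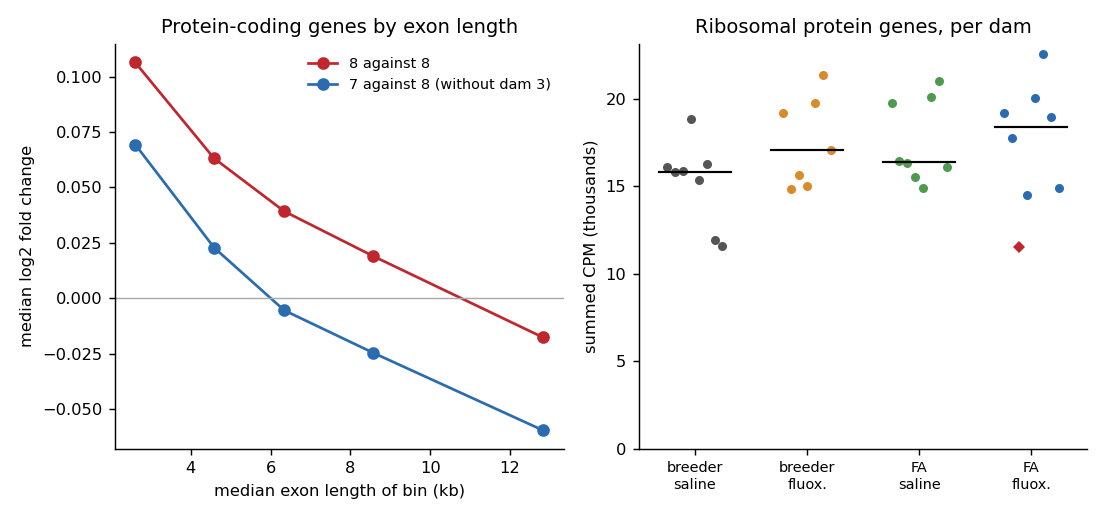
Left, median log2 fold change of FA diet + fluoxetine against control in 5 groups of protein-coding genes by exon length in kb, with all libraries (red) and without dam 3 (blue). Right, summed level of ribosomal protein genes in CPM divided by 1000 for each dam of the 4 groups, with a line at the median and dam 3 as a red diamond. The medians go from 0.11 in the shortest genes to -0.018 in the longest, and dam 3 has the lowest sum of ribosomal protein genes (11519 CPM).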

How the data were processed

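Poly-A RNA of each mammary gland was sequenced as paired-end reads on a NovaSeq instrument, 1 library per dam. The deposited files hold raw read counts per Ensembl gene, which the authors made by trimming (FastQC 0.11.7 and Trim Galore 0.4.4 in the submitters' processing notes), alignment to GRCm39 with HISAT2 and counting with HTSeq in intersection-nonempty mode. The annotation release and the strand option are not given in the sources used here, so overlapping and antisense genes cannot be told apart. Gene names and positions came from GENCODE vM39, which held 54712 of the 55379 gene identifiers, and 667 had no match. Mitochondrially encoded genes, and the serotonin and calcium measurements of the study, were not analysed here.

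Each library is a separate dam, and no 2 libraries of a group agreed within sampling noise (lowest chi-square per degree of freedom 15.8 in controls and 37.9 in FA diet + fluoxetine dams). Counts of the 31 libraries were filtered with filterByExpr, scaled by TMM and fitted in a 4-group model with edgeR 4.0.16 (R 4.3.3) using the robust quasi-likelihood F test, with Benjamini-Hochberg adjustment over all genes tested and a false discovery rate of 10%. The common dispersion was 0.169. CPM are TMM-scaled, and standard errors were taken from the log2 fold change and its F value. Log2 CPM, used for the correlations between libraries, had a prior count of 2, while the log2 fold changes used edgeR's default prior count. The same fit was repeated without FA diet + fluoxetine dam 3. Scalar values were compared by two-sided exact permutation tests. Alternatives were a likelihood ratio test, DESeq2 1.42.0, limma 3.58.1 (voom with sample weights), other filters and normalizations, the replicate number as a block, the 16 libraries alone and each library left out. The scripts were tested on simulated data.

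The comparison, the gene lists and the tests were chosen with earlier results of these data known. Named genes were the 10 of smallest p with all libraries and without dam 3, up to 2 members per list with an unadjusted p of 0.01 or below in each fit and the 2 members of highest mean CPM as examples, a fixed set of 25 genes, and up to 5 genes without overlap between groups. A few of the genes chosen in this way are not reported here. Other members named beside their list's count were chosen after their values were seen. Lists are described by counts and medians, to be read against the shares and medians of all genes tested that the report gives, and no set test was run.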

Additional observations from a re-analysis of the deposited data

Results flagged for a closer look

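In 27 of the 112 groups of 8 libraries examined (a named gene or a library measure in 1 group), the highest or lowest library lay farther from the rest than Dixon's 95% critical value for 8 samples allows. Chance alone would mark about 1 in 20 groups if they were independent and chosen without regard to their values. Many of these genes were named for a small p in these same libraries, and the groups share libraries. The 27 can therefore not be set against that rate. In 22 of the 27 the library was FA diet + fluoxetine dam 3, and no explanation of that library was tested.

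Dam 3 was the highest of its group in 13 of these genes. Its level was 31.4 CPM for *Pea15a* (10.0 to 16.0 in the other dams of the group) and 34.8 CPM for *Jpt1* (11.2 to 19.0). *Gadd45a* reached 8.06 CPM, *Serping1* 61.1 CPM, *Mmp9* 6.12 CPM and *Mrc1* 26.9 CPM. *Itpr2* reached 48.3 CPM, *Igfbp5* 378 CPM (2.0 to 6.25 in the other dams), *Osmr* 31.7 CPM and *Fabp4* 675 CPM. *Tph1* reached 12.5 CPM (0.263 to 1.05), *Mllt6* 33.2 CPM (11.8 to 16.3) and *Gm47445* 3.83 CPM (0.246 to 0.719).

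Dam 3 was the lowest of its group in 8 further genes and in 1 library measure. *Csn2* had 13531 CPM (129648 to 196055 in the other dams), *Wap* 14614 CPM (135777 to 296055) and *Lalba* 708 CPM. *Folr1* had 26.5 CPM (284 to 441), *Pthlh* 1.08 CPM (17.3 to 31.8) and *Malat1* 121 CPM (242 to 426). *Gphn* had 7.20 CPM and *Uqcc6* 0.839 CPM (3.47 to 5.26). The 20 most abundant genes took 39.3% of its counts, against 72.6% to 78.9% in the other dams of the group.

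The remaining 5 values came from other dams. Control dam 3 had the lowest *Fdps* (10.3 CPM, against 17.5 to 28.0 in the other controls) and the highest *Lcn2* (624 CPM, against 250 to 370). Control dam 10 had the highest *Itpr2* (15.1 CPM). Control dam 4 had the lowest *Haus8* (0.114 CPM). FA diet + fluoxetine dam 6 had the lowest *Cstpp1* (0.386 CPM, against 0.546 to 0.655).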

How the results depend on the processing

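Of 1594 alternative values for 52 named genes, 1518 kept their direction and their side of the false discovery rate, 11 passed it in addition, 0 lost it and 65, in 8 genes, took the opposite sign. The count at the false discovery rate of 10% was 1 with the likelihood ratio test and 15 with DESeq2, and 0 under the other settings run. The count at an unadjusted p of 0.05 or below became 786 (509 higher) with only the 16 libraries and 3856 (1812 higher, 2044 lower) without a filter on low counts. Higher genes numbered 525 without dam 3, and then 481 with the likelihood ratio test, 527 with the replicate block and 480 with only the 15 libraries. Lower genes numbered 624 with DESeq2 (670 without dam 3) and 641 with limma voom. Leaving out 1 library gave 913 to 1689 genes at that p, 525 to 1062 higher and 264 to 627 lower, where 627 was without FA diet + fluoxetine dam 2. With dam 3 out and 1 more library left out, an alternative chosen after seeing the data, the ranges were 698 to 1419, 361 to 776 higher and 305 to 653 lower, where 305 was without control dam 12. The difference in the share of the 20 most abundant genes was -5.57 to 0.0892 percentage points, where 0.0892 was without dam 3. The replicate numbers are shared by 7 pairs of dams (correlation of same-numbered libraries -0.105 to 0.284, above 0.1 in 2 of 7). Differently numbered libraries were not compared, so whether the numbers pair the dams was not settled. The replicate block left 423 higher genes. Opposite signs were given by DESeq2 and limma voom for *Serping1* (-0.13, -0.092), *Mrc1* (-0.079, -0.21), *Igfbp5* (-0.48, -0.40) and *Tph1* (-0.38, -0.26), and by limma voom for *Wap* (0.062). Without dam 3, under the likelihood ratio test, DESeq2, the replicate block and the 15 libraries alone, *Serping1* had -0.18, -0.18, -0.19 and -0.17, *Mrc1* -0.078, -0.071, -0.22 and -0.070, *Igfbp5* -0.52, -0.52, -0.72 and -0.52, *Tph1* -0.39, -0.39, -0.24 and -0.38, *Pthlh* 0.049, 0.053, 0.11 and 0.055, and *Wap* 0.16, 0.17, 0.037 and 0.17. In the same fits except the block *Csn2* had 0.043, 0.045 and 0.050. Leaving out 1 library in turn gave -0.18 to 1.78 for *Serping1*, -0.084 to 1.60 for *Mrc1*, -0.52 to 3.18 for *Igfbp5*, -0.39 to 1.73 for *Tph1*, -0.25 to 0.048 for *Pthlh*, -0.20 to 0.043 for *Csn2*, -0.12 to 0.16 for *Wap* and -0.075 to 0.17 for *Folr1*, and in the first 6 of these genes the sign turned only without dam 3. *Folr1*, close to 0, was -0.011 with DESeq2, -0.0060 with the 16 libraries, -0.0068 without a filter, -0.0015 with a filter of 1 CPM, -0.010 with RLE, -0.0018 with upper quartile scaling, -0.012 without the 20 most abundant genes and -0.11 with the replicate block. The cause of these differences was not tested. With 8 dams a group and a median standard error of 0.234, small differences were not detectable.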

Other observations

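Immunoglobulin variable segments, the parts of antibody genes that B and plasma cells join for each clone, were mostly lower in the FA diet + fluoxetine dams, and this group was chosen after its values were seen. Of 112 segments tested 108 had a log2 fold change below 0, 39 of them with an unadjusted p of 0.05 or below, and the median was -1.35. Over all genes tested 2.71% were lower at that p, and the median was 0.035. Without dam 3, 107 of 108 were below 0, 39 of them with an unadjusted p of 0.05 or below, and the median was -1.54, against 3.39% and -0.0069 over all genes. None passed the false discovery rate in either fit. The summed level ranged from 5.42 to 382 CPM in controls (median 166 CPM) and from 1.66 to 99.4 CPM in 7 exposed dams, with 109 CPM in dam 3, so the groups overlapped. The median was -0.97 with fluoxetine alone and -0.66 with FA alone, in comparisons that share the control libraries. A dam may use only some segments, so the segments of 1 dam share their cells, and reads of similar segments may have been divided unevenly.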
